A study of Mus musculus with 8 samples.

Results

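Solute carriers are membrane proteins that move small molecules and ions across the plasma membrane and the membranes of organelles, driven by gradients rather than by direct use of ATP. They are grouped in numbered families: some serve uptake at the cell surface, others export the products of digestion from lysosomes, and the Slc25 family works in the inner mitochondrial membrane. In phagocytes, lysosomal carriers for peptides, amino acids and sugars release what is broken down there, and Slc15a3 and Slc15a4 are also known for carrying ligands of innate immune sensors. The genes described here are those named Slc, a family number, the letter a and a member number. Families Slc1, Slc2, Slc3, Slc6, Slc7, Slc11, Slc16, Slc38 and Slc40 were left out, and the best probe set of a gene had to average a log2 level of at least 6 over all arrays. Of 218 candidate genes, 95 met this level and 123 did not, among 11836 genes tested in all. The naming pattern takes no carrier with another letter, such as Slc35b1.

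Expression was measured on 8 one-colour Affymetrix arrays of mouse bone marrow cells, 4 for each of 2 groups. All cells came from C57BL/6 mice with the tamoxifen-inducible recombinase Cre-ERT2 at the Rosa26 locus and had been transformed with retroviral Hoxa9 and a floxed retroviral Meis1, and the labels call them immortalized myeloid cells. Cells labelled Hoxa9 and Meis1 kept both genes and received no drug. In the group called Meis1 deleted here, 2 µM 4-hydroxytamoxifen was added to delete the Meis1 cDNA, which leaves Hoxa9. Interleukin-3 at 5 ng/ml and 10% serum were in the medium of both. Because only the deleted cells met the drug, effects of 4-hydroxytamoxifen and of active Cre cannot be told apart from the loss of Meis1. Neither clonality of the transformed cells nor separate culture of the 4 replicates is stated in the labels, and p-values then rest on a spread between samples that could be purely technical. The comparison asks which genes differ between drug-treated cells that keep Hoxa9 alone and untreated cells that keep Hoxa9 and Meis1.

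The arrays carried 3 features that touch the values below. Meis1 could not serve as a check of the labels: the probe set kept for it averaged 5.00 ± 0.05 (SD, n = 4) with Meis1 and 5.02 ± 0.07 after its deletion. Another Meis1 probe set, not kept, averaged 3.64 ± 0.05 with Meis1 and 3.78 ± 0.07 after its deletion, so neither probe set fell. No source used here tells whether they lie in the deleted cDNA. Meis1 deleted replicate 1 stood apart, with a typical distance from its group of 0.222 on the log2 scale against 0.102 to 0.120 for the other 7 arrays, and its Gapdh control read 0.725 higher at the 3′ than at the 5′ end, against -0.0721 to 0.0352 elsewhere. The spiked bioB control divided the arrays into a first set at 4.04 to 4.28, with Meis1 deleted replicates 1, 2 and 3 and Hoxa9 and Meis1 replicates 1 and 2, and a second set at 6.43 to 6.61, with the other 3 arrays. The labels name no batch. All 10 myeloid marker genes checked lay above the lowest array median of 4.69 in both groups, at 7.08 to 12.83. They moved between the groups: 6 rose, among them Csf1r by 1.06 ± 0.08, Csf3r by 1.04 ± 0.08, Lyz2 by 0.72 ± 0.04 and Mpo by 0.59 ± 0.08, and 3 fell, namely Cd33 by 0.96 ± 0.05, Elane by 0.50 ± 0.13 and Cebpa by 0.36 ± 0.06 (limma). The other rises were smaller, at 0.21 ± 0.05 for Ptprc and 0.28 ± 0.06 for Spi1. Of all tested genes with a mean of at least 6, 22.1% rose and 22.6% fell. The mean log2 level of the 10 myeloid markers per array ran from 9.52 to 9.63 in Meis1 deleted and from 9.33 to 9.39 in Hoxa9 and Meis1 cells. None of 5 fibroblast markers lay above 4.69 in both groups, nor did Cd79b, Ms4a1 and Pax5 of B cells. Counted the same way, 1 of 4 B cell, 1 of 4 T cell, 2 of 3 erythroid and 2 of 4 megakaryocyte markers did, and their part in the results was not tested. Of the megakaryocyte markers, Pf4 read 10.27 in Meis1 deleted and 6.43 in Hoxa9 and Meis1 cells, while Gp9 and Gp1bb lay at 3.45 to 4.54 in both groups. In such bulk samples, fewer cells of a type and less RNA per cell cannot be told apart.

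The promoters of 5 members are shown. They belong to the member that fell furthest and to pairs of related genes that stand close together in the genome and both changed. Another close pair, Slc25a29 and Slc25a47 on chromosome 12, is not shown. Neither of its genes passed the test. The sequences are from RefSeq, build GRCm38.p6, from 250 bases before to 50 bases after an annotated start, 5′ to 3′ on the strand of the gene. Capitals mark matches, on either strand, to any of 6 motifs searched: CACGTG (the E-box), TGACAG (a Meis core), TGATTTAT (a Hoxa9 composite), GAAA, any 2 bases and GAAA again (an interferon response core), GAGGAAGT (an ETS core of Spi1) and TGCGCNC (a metal response core). Slc31a2 and Slc31a1, the copper carriers, lie on chromosome 4 with Fkbp15 between them. Slc22a4 and Slc22a5, carriers of ergothioneine and of carnitine, lie on chromosome 11 with Slc22a21 between them. Slc25a15 is the mitochondrial ornithine carrier. It has a second window, not printed here, that holds an interferon response core.
Slc31a2, chr4:62286179-62286478, strand +: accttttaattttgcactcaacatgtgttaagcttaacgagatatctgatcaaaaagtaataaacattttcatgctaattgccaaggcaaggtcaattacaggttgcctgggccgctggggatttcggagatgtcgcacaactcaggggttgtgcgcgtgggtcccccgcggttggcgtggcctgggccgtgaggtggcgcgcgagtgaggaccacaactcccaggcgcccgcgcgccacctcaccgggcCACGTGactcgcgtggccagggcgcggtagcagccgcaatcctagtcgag
Slc31a1, chr4:62360451-62360750, strand +: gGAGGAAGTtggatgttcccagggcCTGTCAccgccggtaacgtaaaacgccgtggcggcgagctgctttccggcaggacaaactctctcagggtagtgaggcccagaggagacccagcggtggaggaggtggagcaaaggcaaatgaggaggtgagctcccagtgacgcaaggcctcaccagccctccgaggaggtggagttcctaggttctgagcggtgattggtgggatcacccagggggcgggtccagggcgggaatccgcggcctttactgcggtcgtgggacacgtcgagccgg
Slc22a4, chr11:54028055-54028354, strand -: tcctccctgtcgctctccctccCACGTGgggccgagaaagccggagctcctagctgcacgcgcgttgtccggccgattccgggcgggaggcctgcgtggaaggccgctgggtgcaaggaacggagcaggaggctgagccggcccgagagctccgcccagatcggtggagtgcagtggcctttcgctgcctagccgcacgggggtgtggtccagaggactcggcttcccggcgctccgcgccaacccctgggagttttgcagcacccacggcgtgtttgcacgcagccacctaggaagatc
Slc22a5, chr11:53891654-53891953, strand -: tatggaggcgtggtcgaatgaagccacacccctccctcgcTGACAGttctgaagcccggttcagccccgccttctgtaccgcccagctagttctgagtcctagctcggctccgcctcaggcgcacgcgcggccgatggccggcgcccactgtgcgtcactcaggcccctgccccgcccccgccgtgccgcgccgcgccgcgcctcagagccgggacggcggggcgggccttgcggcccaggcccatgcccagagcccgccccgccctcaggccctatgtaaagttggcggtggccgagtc
Slc25a15, chr8:22398228-22398527, strand -: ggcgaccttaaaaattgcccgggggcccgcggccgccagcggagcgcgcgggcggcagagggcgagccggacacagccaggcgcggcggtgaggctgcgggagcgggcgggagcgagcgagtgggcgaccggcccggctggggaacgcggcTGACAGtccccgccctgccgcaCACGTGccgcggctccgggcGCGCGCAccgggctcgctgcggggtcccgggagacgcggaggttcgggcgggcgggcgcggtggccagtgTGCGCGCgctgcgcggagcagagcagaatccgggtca
The E-box begins at the annotated start itself in Slc31a2, 77 bases before it in Slc25a15 and 228 bases before it in Slc22a4. The Meis core begins 225 bases before the start in Slc31a1, 210 in Slc22a5 and 99 in Slc25a15. The window of Slc31a1 also holds the ETS core, and that of Slc25a15 holds 2 metal response cores. So the copper carriers, which both rose, share no motif of the 6 in these windows, and neither do Slc22a4 and Slc22a5, which moved in opposite directions.

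After Meis1 deletion, 27 of the 95 solute carrier genes rose and 20 fell, and 48 did not pass the test (limma, Benjamini-Hochberg adjusted p under 0.05 over all genes tested). The members called make up 49.5%, against 35.5% of all genes tested and 44.7% of those with a mean of at least 6. The second of these shares is over genes of like level, and the members' share is close to it. Of all genes tested 18.1% rose and 17.5% fell, and of those with a mean of at least 6, 22.1% and 22.6%. The median log2 fold change, always Meis1 deleted minus Hoxa9 and Meis1, was 0.02 over the members and -0.00 over all genes. Most changes were small: 33 of the 47 called members moved by less than 0.5 on the log2 scale, 8 by 0.5 to 1 and 6 by at least 1. At 2-fold or more, 5 rose and 1 fell, against 2.51% and 0.676% of all genes, or 3.04% and 0.822% of those with a mean of at least 6. Of those 5, Slc15a3 and Slc9a9 are members only through the Meis1 deleted arrays. Their means in Hoxa9 and Meis1 cells were 5.45 and 5.75. The 4 arrays of one group lay wholly apart from those of the other for 51 members (53.7%), against 38.6% of all genes and 48.8% of those with a mean of at least 6.

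**Figure D1:**
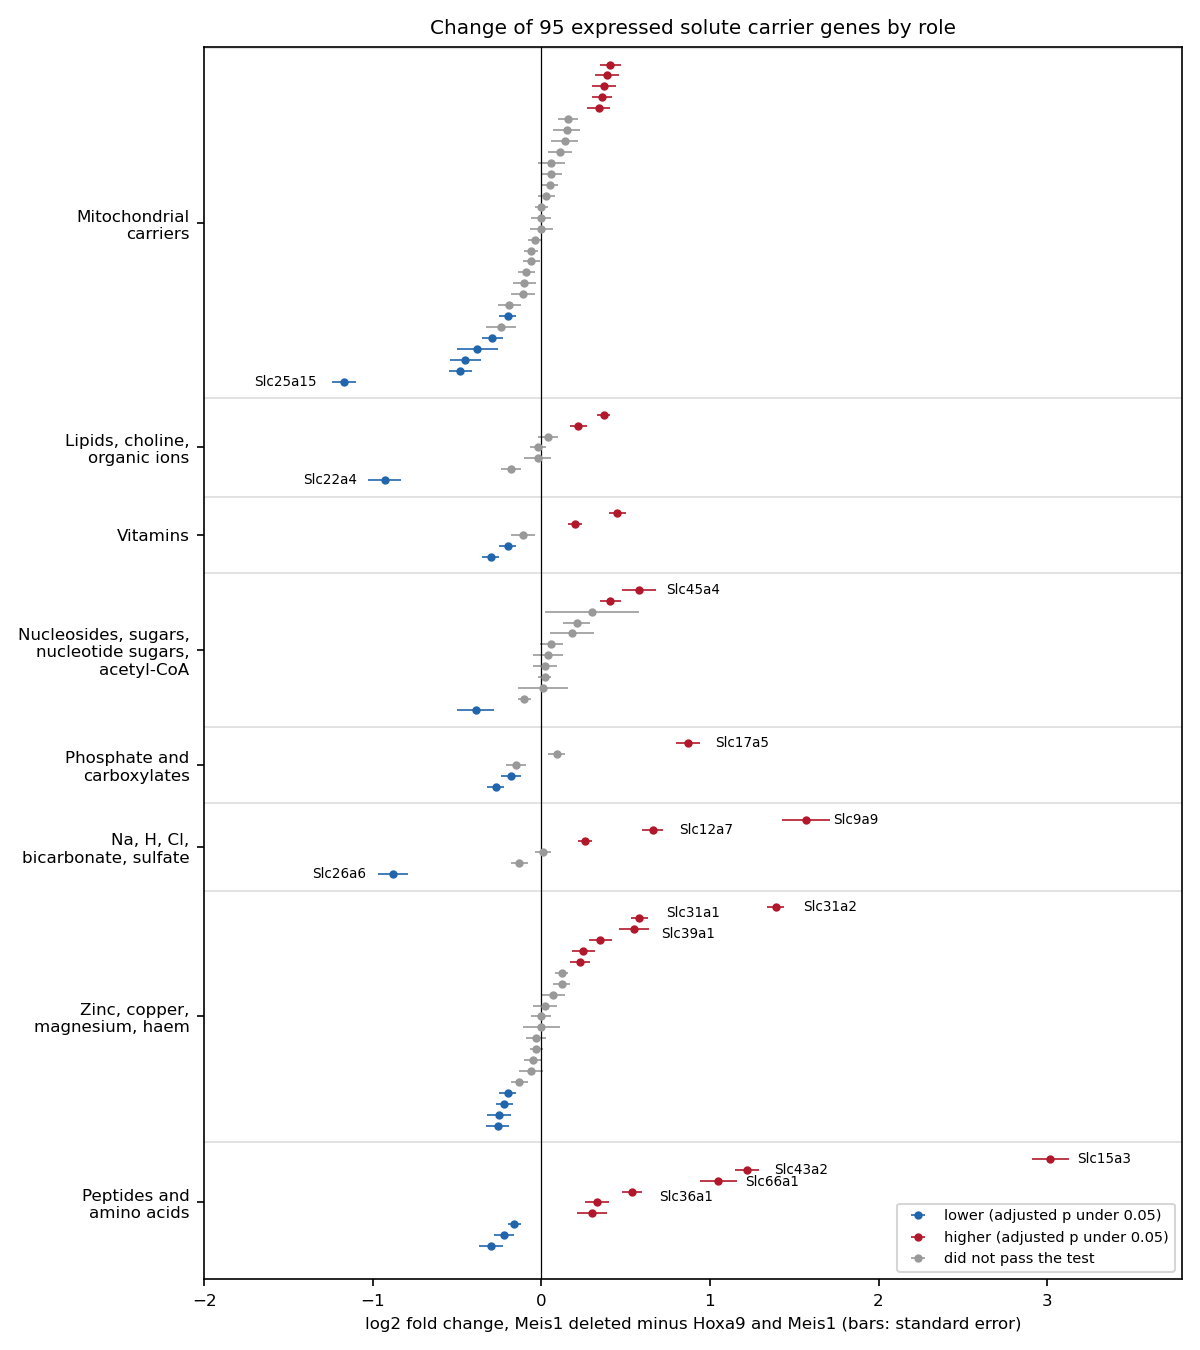
Log2 fold change (Meis1 deleted minus Hoxa9 and Meis1, x axis) of each of the 95 genes, one row per gene, grouped by what is carried. Points are limma estimates and bars their standard errors; red and blue mark genes that rose or fell at an adjusted p under 0.05. Slc15a3 lies alone at 3.02, and the mitochondrial carriers lie between -1.17 and 0.41.

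**Figure D2:**
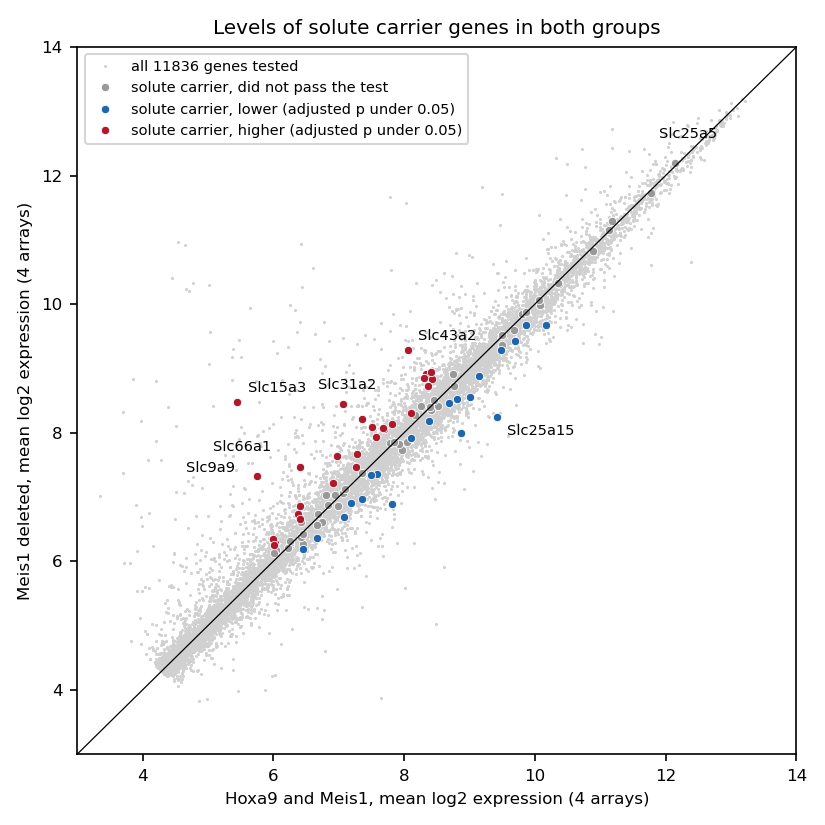
Mean log2 level over 4 arrays in Hoxa9 and Meis1 cells (x axis) and Meis1 deleted cells (y axis) for all 11836 genes tested (small grey points) and the 95 solute carrier genes (large points, coloured by the test). Most large points lie close to the line of equal level, and Slc15a3 and Slc9a9 lie furthest above it among the members. Levels of different genes come from different probes, so only the distance from the line can be read.

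In the peptide and amino acid group, 6 of 9 genes rose and 3 fell, where 44.7% of genes of like level were called. The group holds Slc66a1 and Slc66a2, placed in it after their values were seen, and Slc43a3 and Slc18a1, which carry other molecules. Without these 4, it counts 4 that rose and 1 that fell, all of families Slc15, Slc36 and Slc43. Slc15a3, a proton-coupled carrier of histidine and small peptides in lysosomes, read 8.68, 8.44, 8.24 and 8.53 in Meis1 deleted replicates 1 to 4 and 5.49, 5.24, 5.65 and 5.43 in Hoxa9 and Meis1 replicates 1 to 4. Every deleted array was thus far above every other array. Its log2 fold change was 3.02 ± 0.11 (SE), a level 8.10-fold higher, with a limma adjusted p of 4.83e-08. It was 3.09 in the first bioB set, 2.98 in the second and 2.95 without Meis1 deleted replicate 1. The group mean of Slc15a3 in Hoxa9 and Meis1 cells, 5.45, is under the level of 6, so it is a member through the Meis1 deleted arrays. Its relative Slc15a4, which works in the same compartment, rose by 0.30 ± 0.09 (adjusted p = 0.0267), with 6.81 to 6.96 in Hoxa9 and Meis1 cells and 7.09 to 7.48 in Meis1 deleted cells. In Slc15a4 the top value is Meis1 deleted replicate 1, and the difference is 0.21 (adjusted p = 0.0105) without it. Without Hoxa9 and Meis1 replicate 3 or 4 the adjusted p of Slc15a4 was 0.0761 and 0.0633. Slc15a2, the peptide carrier of the cell surface, fell by 0.22 ± 0.06 (adjusted p = 0.0215). The adjusted p of Slc15a2 was 0.14 and 0.145 in the bioB sets, and 0.0556 to 0.0605 without Hoxa9 and Meis1 replicate 1 or 3 or Meis1 deleted replicate 2 or 3.

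Slc43a2 carries large neutral amino acids such as leucine across the plasma membrane. It read 9.47, 9.19, 9.24 and 9.23 in Meis1 deleted cells and 8.08, 8.05, 8.14 and 7.99 in Hoxa9 and Meis1 cells, with no overlap. The log2 fold change was 1.22 ± 0.07 (limma adjusted p = 1.06e-06), and a second probe set of the gene gave 1.04. Slc66a1, which exports arginine and lysine from lysosomes, read 7.77, 7.46, 7.42 and 7.18 against 6.41, 6.31, 6.38 and 6.53. Its groups were apart too, though the deleted arrays were more spread. The difference of Slc66a1 was 1.05 ± 0.11 (adjusted p = 8.91e-05), but 1.19 in the first bioB set, 0.72 in the second and 0.94 without Meis1 deleted replicate 1. Its relative Slc66a2 went the other way by a small step, from 7.44 to 7.53 in Hoxa9 and Meis1 cells to 7.32 to 7.35 (log2 fold change -0.16, adjusted p = 0.0163), and its second probe set gave -0.02.

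Slc36a1, a proton-coupled exporter of small amino acids in lysosomes, rose by 0.54 ± 0.06 (adjusted p = 1.65e-04). Its deleted arrays lay at 8.87 to 9.01 and the others at 8.30 to 8.52. Slc43a3, a carrier of purine bases that stands here by its family number, rose by 0.33 ± 0.07 (adjusted p = 0.00463). Slc18a1, which loads monoamines into vesicles and also stands here by assignment, fell by 0.30 ± 0.07 (adjusted p = 0.011). Its deleted arrays were tight, at 6.34 to 6.38, and the others ran from 6.45 to 6.81.

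Of 21 carriers of zinc, copper, magnesium and haem, 6 rose, 4 fell and 11 did not pass (47.6% called, against 44.7% of genes of like level), with a median of 0.00. Both copper carriers rose. Slc31a2, a relative of the copper importer that sits mostly in endosomes, read 8.47, 8.45, 8.43 and 8.44 in Meis1 deleted cells and 7.09, 6.98, 7.01 and 7.16 in Hoxa9 and Meis1 cells. The deleted arrays differed from each other by far less than from the others. The log2 fold change was 1.39 ± 0.05 (limma adjusted p = 5.00e-08), 1.42 and 1.35 in the 2 bioB sets, and 1.52 by a second probe set. Slc31a1, the copper importer of the plasma membrane, read 8.88, 8.90, 8.96 and 8.95 against 8.30, 8.32, 8.30 and 8.43. It rose by 0.58 ± 0.05 (adjusted p = 1.44e-05), while its second probe set gave 0.20 (adjusted p = 0.0243 among all kept probe sets). The size for Slc31a1 thus depended on the probe set, and the direction did not.

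Zinc carriers fall mostly into importers to the cytosol (Slc39) and exporters from it (Slc30), a family rule that need not hold for each member, such as Slc30a9. Of 10 Slc39 genes 3 rose, 2 fell and 5 did not pass, and of 6 Slc30 genes none rose, 2 fell and 4 did not pass. The shares called were 50% and 33.3%, against 44.7% of genes of like level, of which 22.1% rose and 22.6% fell. Slc39a1, a zinc importer of the cell surface, read 9.02, 8.85, 8.84 and 8.70 in Meis1 deleted cells and 8.50, 8.37, 8.18 and 8.15 in Hoxa9 and Meis1 cells. The groups did not overlap, and it rose by 0.55 ± 0.09 (adjusted p = 0.00147). Slc39a11 rose by 0.35 ± 0.07 and Slc39a8 by 0.23 ± 0.06. Slc39a8 had a second probe set at -0.04, and its adjusted p was 0.0534 without Hoxa9 and Meis1 replicate 2 and 0.0523 without Meis1 deleted replicate 2. Slc39a6 fell by 0.20 ± 0.05 (adjusted p = 0.00955). Slc39a14, which takes up zinc and non-transferrin iron, fell by 0.26 ± 0.07 (adjusted p = 0.0198), while its other probe sets gave -0.01 and 0.03. The adjusted p of Slc39a14 lay between 0.0543 and 0.0567 without Hoxa9 and Meis1 replicate 2 or Meis1 deleted replicate 3 or 4. Slc30a1, the zinc exporter of the plasma membrane, read 8.42, 8.51, 8.50 and 8.41 against 8.68, 8.63, 8.66 and 8.78. It fell by 0.22 ± 0.05 (adjusted p = 0.00731), with -0.50 in a second probe set. Slc30a9 fell by 0.25 ± 0.07 (adjusted p = 0.0156). Slc30a5, a zinc carrier of the secretory pathway, read 10.33 and 10.36 in the 2 groups and did not pass. Slc41a1, a magnesium carrier, rose by 0.25 ± 0.07 (adjusted p = 0.0227), with an adjusted p of 0.0538 and 0.0669 without Hoxa9 and Meis1 replicate 2 or 3. Slc48a1, which moves haem out of endosomes and lysosomes, read 9.28 to 9.40 against 9.42 to 9.58 (log2 fold change -0.13, adjusted p = 0.0877).

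Among 9 tested genes of a list of zinc and copper binding and sensing proteins, 1 rose and 2 fell, 33.3% against 35.5% of all genes tested. Mt1, a metallothionein that binds zinc and copper, fell by 0.28 ± 0.04 and the metal-responsive factor Mtf1 by 0.42 ± 0.05, although another probe set of Mtf1 gave 0.23 with an adjusted p of 0.00847. The direction of Mtf1 is therefore not settled by these arrays. Atp7a, the copper pump that also delivers copper to phagosomes, rose by 0.22 ± 0.06 (adjusted p = 0.018), and the copper chaperone Atox1 read 10.34 and 10.14 without passing (adjusted p = 0.0778).

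Of the 6 carriers of sodium, protons, chloride, bicarbonate and sulfate, 3 rose and 1 fell (66.7% called, against 44.7% of genes of like level). Slc9a9, a sodium and proton exchanger of endosomes, read 7.78, 7.07, 7.05 and 7.38 in Meis1 deleted cells and 5.81, 5.75, 5.74 and 5.70 in Hoxa9 and Meis1 cells. The deleted arrays were spread, with replicate 1 on top, and the lowest of them was still well above the others. The log2 fold change of Slc9a9 was 1.57 ± 0.14 (limma adjusted p = 3.28e-05), and 1.41 without Meis1 deleted replicate 1. Only 1 of the 4 probe sets of Slc9a9 was kept by the filter on mean level. Its mean of 5.75 in Hoxa9 and Meis1 cells is under 6, so this gene too is a member through the deleted arrays. Slc12a7, a potassium and chloride cotransporter that acts in cell volume control, read 7.68, 7.56, 7.62 and 7.71 against 6.93, 6.89, 7.04 and 7.05, a rise of 0.66 ± 0.06 (adjusted p = 1.78e-05). A second probe set of Slc12a7 gave 0.18 and did not pass (adjusted p = 0.107). Slc12a9 rose by 0.26 ± 0.04, while Slc12a2, the sodium, potassium and chloride cotransporter that works in the inward direction, read 6.80 to 6.92 against 6.94 to 7.04 and did not pass (adjusted p = 0.0609).

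Slc26a6, an exchanger of chloride for bicarbonate, oxalate and other anions, fell. It read 8.26, 7.89, 7.84 and 7.96 in Meis1 deleted cells and 8.83, 8.93, 8.88 and 8.83 in Hoxa9 and Meis1 cells. Meis1 deleted replicate 1 lay nearest to the other group. The log2 fold change was -0.88 ± 0.09 (adjusted p = 4.75e-05), and -0.97 without that replicate. Of 9 tested genes that regulate or serve these carriers, 4 rose and 2 fell, 66.7% against 35.5% of all genes tested. The carbonic anhydrases, which make bicarbonate and protons from carbon dioxide, did not move one way: Car13 rose by 1.07 ± 0.11 and Car4 by 0.98 ± 0.09, and Car2 fell by 0.38 ± 0.07. Stk39, a kinase that acts on the Slc12 cotransporters, fell by 0.29 ± 0.06.

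**Figure D3:**
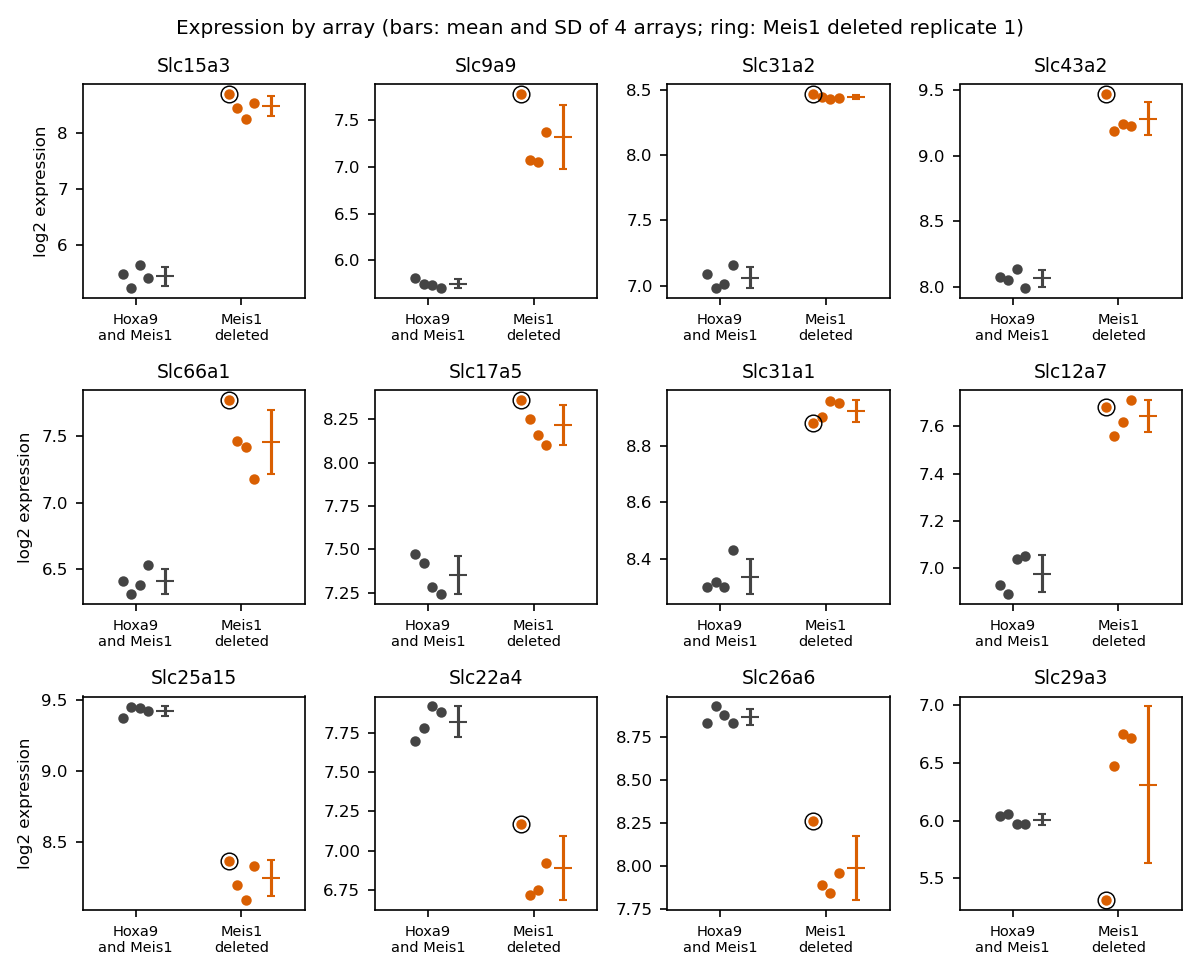
Log2 level of 12 solute carrier genes in each of the 8 arrays, with replicates 1 to 4 from left to right in each group, and the mean and SD of 4 arrays beside them; the y axes differ and do not start at 0. A ring marks Meis1 deleted replicate 1. In 11 of the 12 genes the groups lie apart, and in Slc29a3 the ringed array lies below both groups at 5.31.

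Among 5 phosphate and carboxylate carriers, 1 rose and 2 fell, 60% against 44.7% of genes of like level. Slc17a5 (sialin), which exports sialic acid from lysosomes, read 8.36, 8.25, 8.16 and 8.10 in Meis1 deleted cells and 7.47, 7.42, 7.28 and 7.24 in Hoxa9 and Meis1 cells. All deleted arrays were higher, and the difference was 0.87 ± 0.07 (limma adjusted p = 1.80e-05), with 0.81 and 0.84 in the bioB sets. Slc20a1, the sodium-coupled phosphate importer that also serves as a retroviral receptor, fell by 0.27 ± 0.05 (adjusted p = 0.00245), from 9.63 to 9.77 in Hoxa9 and Meis1 cells to 9.39 to 9.49. Slc13a2, a carrier of dicarboxylates, fell by 0.18 ± 0.06 (adjusted p = 0.034), and its adjusted p lay between 0.064 and 0.0957 when Hoxa9 and Meis1 replicate 3 or 4, or Meis1 deleted replicate 2, 3 or 4, was left out.

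Of 12 carriers of nucleosides, nucleotide sugars, sugars and acetyl-CoA, 2 rose, 1 fell and 9 did not pass (25% called, against the same 44.7%). Slc45a4 rose by 0.58 ± 0.10 (adjusted p = 0.00139), with deleted arrays at 7.91 to 8.24 and the others at 7.37 to 7.66, though its other probe sets gave 0.20 and -0.06. Slc35a5, of a family that brings nucleotide sugars into the Golgi, rose by 0.41 ± 0.06 (adjusted p = 4.08e-04). Slc35a3, which carries UDP-N-acetylglucosamine, read 9.84 and 9.81. Slc28a2, which takes up purine nucleosides together with sodium, fell by 0.39 ± 0.11 (adjusted p = 0.0226), with values of 7.01, 6.61, 6.64 and 6.51 against 7.19, 7.20, 6.94 and 6.99. Meis1 deleted replicate 1 overlapped the other group in Slc28a2, and the difference was -0.49 (adjusted p = 7.09e-04) without it. Leaving out Hoxa9 and Meis1 replicate 1 or 2, or Meis1 deleted replicate 2, 3 or 4, took the adjusted p of Slc28a2 to between 0.0567 and 0.0634.

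Slc29a3, a nucleoside carrier of lysosomes, turned on 1 array. It read 5.31, 6.47, 6.75 and 6.72 in Meis1 deleted cells and 6.04, 6.06, 5.97 and 5.97 in Hoxa9 and Meis1 cells, so that replicate 1 lay below all the others and replicates 2 to 4 above them. Over all arrays the log2 fold change was 0.30 ± 0.28 (adjusted p = 0.445), and without Meis1 deleted replicate 1 it was 0.63 (adjusted p = 1.08e-04). Slc29a1, the nucleoside carrier of the cell surface, likewise had replicate 1 lowest, at 6.21, 6.76, 6.81 and 6.68 against 6.31 to 6.55, with 0.18 (adjusted p = 0.309) over all arrays and 0.32 (adjusted p = 0.00669) without that replicate. Slc35a4 differed in the opposite sense, at 8.89 in Meis1 deleted replicate 1 and 8.10 to 8.41 in the other 3 against 8.32 to 8.46, and its difference of 0.01 became -0.16 (adjusted p = 0.126) without it. The part that the RNA quality of this array plays in these values was not tested.

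Among 14 tested Slc35 genes with another letter in the name, 3 rose and 2 fell, 35.7% against 35.5% of all genes tested. Slc35f6 rose by 1.13 ± 0.07, from 6.20 ± 0.11 (SD, n = 4) to 7.33 ± 0.09, and Slc35d2 by 0.43 ± 0.04. Slc35b3 fell by 0.30 ± 0.05 and Slc35e4 by 0.41 ± 0.10. These genes thus moved both ways, as the members did.

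Of 5 vitamin carriers, 2 rose and 2 fell (80% called, against 44.7%), of which Slc49a4 was placed in this group after its values were seen. Slc52a3, a riboflavin importer, read 6.77, 6.91, 6.87 and 6.89 in Meis1 deleted cells and 6.42, 6.33, 6.40 and 6.48 in Hoxa9 and Meis1 cells, a rise of 0.45 ± 0.05 (adjusted p = 1.22e-04). Slc19a2, a thiamine importer, rose by 0.20 ± 0.04 (adjusted p = 0.00451), with a second probe set at -0.08. Slc23a2, which takes up ascorbate, fell by 0.30 ± 0.05 (adjusted p = 0.00102), from 8.80 to 8.84 in Hoxa9 and Meis1 cells to 8.46 to 8.61. Slc49a4, a carrier of lysosomes, fell by 0.20 ± 0.05 (adjusted p = 0.017), with 0.0512 and 0.0501 without Hoxa9 and Meis1 replicate 3 or 4.

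Of 7 carriers of lipids, choline and organic ions, 2 rose and 1 fell (42.9% called, against 44.7%). Slc22a4, which takes up the antioxidant ergothioneine, read 7.17, 6.72, 6.75 and 6.92 in Meis1 deleted cells and 7.70, 7.78, 7.92 and 7.88 in Hoxa9 and Meis1 cells. It fell by 0.93 ± 0.10 (adjusted p = 9.41e-05), and the difference was -1.02 without Meis1 deleted replicate 1. Its close relative and near neighbour Slc22a5, the carnitine importer, read 7.51, 7.44, 7.48 and 7.47 against 7.31, 7.33, 7.20 and 7.20. Slc22a5 rose by 0.22 ± 0.05 (adjusted p = 0.00755), so 2 related genes separated by a single gene moved in opposite directions. The difference of Slc22a5 was 0.16 in the first bioB set alone, where it did not pass (limma adjusted p = 0.131), and 0.27 in the second. Slc10a3 rose by 0.37 ± 0.04 (adjusted p = 9.69e-05). Slc44a2, a choline carrier family member, read 11.16 and 11.13 in the 2 groups. Its other probe sets gave 0.05 and -0.42, the latter with a limma adjusted p of 0.00443. Of 11 tested haem, vitamin and lipid transporters with other names, 2 rose and 3 fell, 45.5% against 35.5% of all genes tested. Slco4a1, an organic anion transporter, fell by 1.29 ± 0.07, from 7.82 ± 0.03 (SD, n = 4) to 6.53 ± 0.14, and Mfsd2a, which carries lysophospholipids, fell by 0.37 ± 0.06. Slco3a1 rose by 0.21 ± 0.06 and the haem exporter Flvcr1 by 0.16 ± 0.05.

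Of the 30 mitochondrial carriers of the Slc25 family, 5 rose, 6 fell and 19 did not pass (36.7% called, against 44.7% of genes of like level), with a median of -0.00 and a range of -1.17 to 0.41. Slc25a15, which exchanges ornithine and citrulline for the urea cycle and polyamine supply, fell furthest. It read 8.37, 8.20, 8.09 and 8.33 in Meis1 deleted cells and 9.37, 9.45, 9.44 and 9.42 in Hoxa9 and Meis1 cells. The groups lay far apart, with a log2 fold change of -1.17 ± 0.07 (limma adjusted p = 9.61e-07), -1.19 and -1.10 in the bioB sets and -0.74 in a second probe set. Slc25a37 (mitoferrin 1), which brings iron into mitochondria, read 9.90, 9.64, 9.57 and 9.63 against 10.13, 10.14, 10.26 and 10.13. It fell by 0.48 ± 0.07 (adjusted p = 8.15e-04), and its other probe sets gave -0.80 and -0.17. Slc25a1, which exports citrate for lipid synthesis, read 8.33, 8.71, 8.66 and 8.55 against 9.13, 9.10, 8.94 and 8.87, and fell by 0.45 ± 0.09 (adjusted p = 0.00454).

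Slc25a32, a carrier of folate and FAD, fell by 0.38 ± 0.12 (adjusted p = 0.0388). Its Meis1 deleted replicate 1 read 7.40, at the level of the Hoxa9 and Meis1 arrays (7.28 to 7.40), while the other deleted arrays lay at 6.80 to 6.87. The difference of Slc25a32 was -0.52 (adjusted p = 2.91e-05) without that replicate, and leaving out any other array took the adjusted p to between 0.0629 and 0.0995. Slc25a14 fell by 0.29 ± 0.06 and Slc25a36, a carrier of pyrimidine nucleotides, by 0.20 ± 0.05, with -0.46 in a second probe set. The 5 that rose did so by similar steps: Slc25a45 by 0.41 ± 0.06, Slc25a22, the glutamate carrier, by 0.39 ± 0.07, Slc25a30 by 0.37 ± 0.07 (its other probe sets, at 0.13 and 0.24, did not pass), Slc25a44, which takes up branched-chain amino acids, by 0.36 ± 0.06, and Slc25a40 by 0.34 ± 0.07. The ADP and ATP carriers showed little change: Slc25a5 read 12.12, 12.22, 12.21 and 12.26 against 12.07, 12.13, 12.20 and 12.20, and Slc25a4 averaged 10.83 and 10.89. Neither passed, nor did Slc25a3, the mitochondrial phosphate carrier, at 11.73 and 11.77, or Slc25a20, the carnitine and acylcarnitine carrier, at 8.91 and 8.75 (adjusted p = 0.0509). A second probe set of Slc25a20 gave 0.20 and did pass (limma adjusted p = 0.0332 among all kept probe sets). Of 10 tested mitochondrial transport genes with other names, 30% were called, against 35.5% of all genes: Mpc1 of the pyruvate carrier rose by 0.19 ± 0.05, Smdt1 of the calcium uniporter rose by 0.19 ± 0.04 and Sfxn3, of the sideroflexin family, fell by 0.31 ± 0.11. Mcu, the pore of the uniporter, read 6.84 and 7.03 (adjusted p = 0.0519).

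A further grouping is by location in the cell. The 10 members placed in endosomes or lysosomes, a list drawn up after their values were seen, are Slc15a3, Slc15a4, Slc9a9, Slc31a2, Slc66a1, Slc17a5, Slc36a1, Slc29a3, Slc48a1 and Slc49a4. Of these, 7 rose, 1 fell and 2 did not pass, where 22.1% of genes of like level rose and 22.6% fell. The list need not hold every member found there, so its counts depend on the choice. Not on it are, for example, Slc26a11 at 0.01 and Slc17a9 at -0.15, which did not pass, and Slc66a2, which fell by 0.16. Of the 55 members neither on the list nor of family Slc25, 15 rose and 13 fell (50.9% called, against 44.7% of genes of like level). Slc15a3 and Slc9a9 are members only through the Meis1 deleted arrays, and without them the list counts 5 higher and 1 lower of 8. Of 14 lysosomal partner genes under other names, 9 rose and none fell at the same threshold, with a median of 0.51, against 18.1% of all genes tested that rose. Npc1, which exports cholesterol from lysosomes, rose by 1.03 ± 0.07, the interferon factor Irf7, on the list as a partner of lysosomal sensing, by 0.96 ± 0.08, Mfsd12 by 0.67 ± 0.05 and Mfsd1 by 0.50 ± 0.04. A second probe set of Mfsd12 gave -0.27 (adjusted p = 0.057). Both lists were chosen with earlier results of these data known, and their counts are descriptions from which nothing about lysosomes as such is read. Of the 10 myeloid markers checked, 6 rose in the same arrays, Csf1r, Csf3r and Lyz2 among them. Another 3 fell, namely Cd33, Elane and Cebpa, where 22.1% of genes of like level rose and 22.6% fell. The part of these markers in the values above was not tested.

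**Figure D4:**
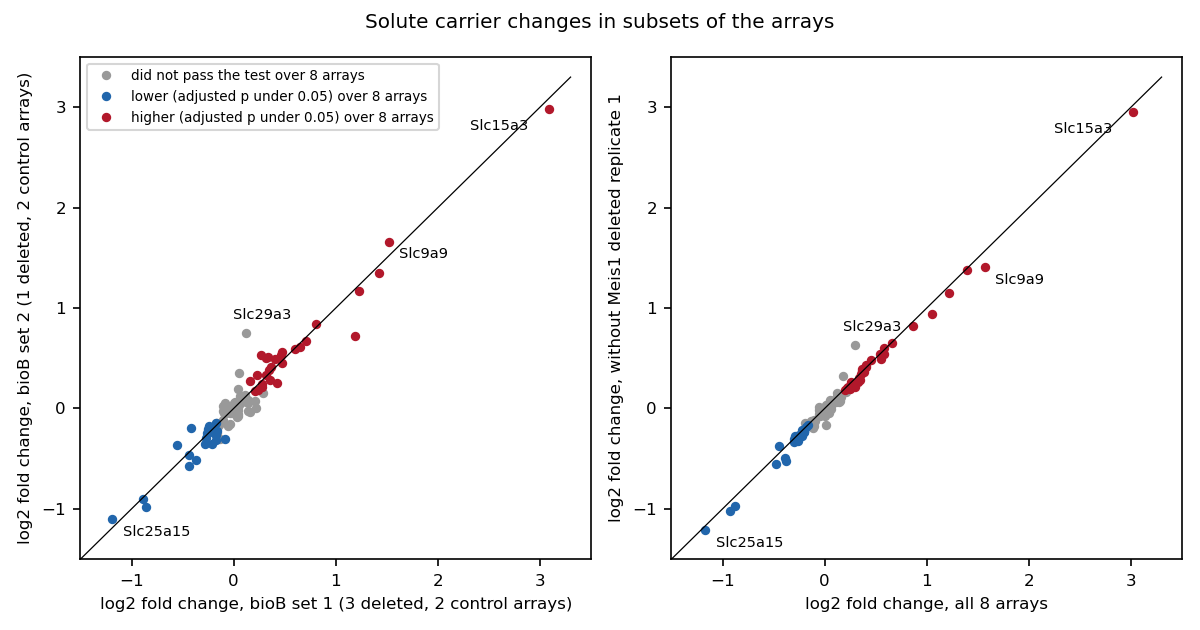
Log2 fold changes of the 95 genes in subsets of the arrays. Left, the first bioB set (3 deleted and 2 control arrays, x axis) against the second (1 and 2, y axis); right, all 8 arrays (x axis) against the same without Meis1 deleted replicate 1 (y axis); the line marks equal values and colours give the test over all arrays. Slc15a3 lies at 3.09 and 2.98 on the left, and Slc29a3 lies above the line in both panels.

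The 6 members changed by 2-fold or more passed in each bioB set, with the set as a block and with any single array left out, while many smaller changes did not. In the first bioB set alone 21 of the 47 calls did not pass and none was gained, and in the second, with 1 deleted array assumed to vary like the others, 18 did not pass and 2 were gained (Slc29a1 and Slc29a3). With the bioB set as a block, none was lost and 4 were gained (Slc17a9, Slc19a1, Slc35a1 and Slc48a1). Without Meis1 deleted replicate 1 none was lost and 6 were gained, namely Slc25a24, Slc25a26, Slc25a33, Slc29a1, Slc29a3 and Slc30a6. With that replicate left out and the bioB set as a block, none was lost and 15 were gained. Another 6 members had groups that did not overlap and yet did not pass: Slc12a2, Slc25a12, Slc25a20, Slc37a4, Slc39a3 and Slc48a1. Of the 17 called members with another kept probe set, 9 had one that passed in the same direction and 0 had one that passed in the opposite direction.

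The level of 6 fell in a gap. Just inside it were Slc39a3 at 6.07 and Slc25a29 at 6.11 over all arrays, and just outside it Slc46a3 at 5.55 and Slc34a2 at 5.52. Slc46a3 and Slc37a2 were left out by their mean although they exceeded 6 in Meis1 deleted cells, at 6.14 against 4.97 and 6.13 against 4.48.

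Promoter windows were found by symbol for 74 of the 95 members, 21 of those that rose, 14 of those that fell and 39 that did not pass. The E-box CACGTG was present in 7 of 21 that rose, 7 of 14 that fell and 7 of 39 that did not pass, against 13% of tested genes with a mean of at least 6 and 7.15% of all windows of this length. It stood in members that moved either way, such as Slc31a2, Slc12a7 and Slc36a1 among the rises and Slc25a15, Slc22a4 and Slc25a1 among the falls. The Meis core TGACAG was present in 7 of 21, 2 of 14 and 12 of 39, against 19.7% of those tested genes and 19.2% of windows. TGATTTAT was in no member window, and 0.482% of those genes and 0.977% of windows hold it. The interferon response core was found in Slc25a22 and Slc25a15 (3.8% of those genes, 3.44% of windows). The match in Slc25a15 lies in the window that is not printed above. GAGGAAGT was found in Slc31a1, Slc49a4 and Slc22a15 (4.22% and 3.2%). TGCGCNC was in 4 of 21, 3 of 14 and 15 of 39 (31% and 15.4%). These matches are descriptions of letters in a window.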

How the data were processed

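The deposited values are on a log2 scale and were made comparable across arrays by the authors, as judged from the table itself: array medians lie between 4.69 and 4.74. MAS5 is named without a version in the submitters' processing notes; how probes were summarised, and on which build, is not stated there or in the labels. RNA input was 100 ng per array, per the labels' protocols. Of 45141 probe sets, 104 were controls, 28898 had 1 gene symbol in GEO's platform annotation, 551 had several and 15588 were unnamed here. The lowest 40% by mean (under 4.29) were left out, which kept 27022. Between-group differences were fitted on these with limma 3.58.1 (lmFit and eBayes, R 4.3.3). The probe set with the highest mean then stood for its gene, and p-values were Benjamini-Hochberg adjusted over 11836 genes, with a threshold of 0.05. Adjusted p-values of other probe sets are over all kept probe sets. For arrays, their number limits the precision. All 95 members matched RefSeq (GRCm38.p6) by gene identifier. The script was tested on simulated data. Python 3.11.15 and matplotlib 3.10.9 drew the plots.

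Named are members changed at least 2-fold, the 12 largest rises and falls that passed, the smallest p per direction and the highest mean in each role, genes next to the level of 6, and up to 4 genes per partner list. Other members were named after their values were seen. The assignments of families Slc49 and Slc66 to roles were made after values were seen. The members, roles and lists were chosen with earlier results of these data known. The bioB sets split the arrays at the largest gap in the spiked bioB control. Alternatives covered offsets, scaling, filters, probe set choice, the variance model, the replicate number as a block, the bioB sets and each array left out. Leaving out Meis1 deleted replicate 1 together with the bioB block, and estimating the variance prior from the genes alone, were added after seeing the data.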

Additional observations from a re-analysis of the deposited data

Results flagged for a closer look

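In 11 of 170 groups of 4 arrays, over the 85 genes named or checked, 1 array lay far from the other 3 relative to the whole range of the group. Chance flags about 1 in 20 groups. In 5 of these the array was Meis1 deleted replicate 1: Slc15a4 at 7.48, Slc20a1 at 9.49 and Slc25a32 at 7.40 were high there, Mcu was high at 7.01, and Slc25a3 was low at 11.66. Slc13a2 was low in Meis1 deleted replicate 4, at 7.88. Among the Hoxa9 and Meis1 arrays, Slc25a37 was high in replicate 3 at 10.26 and Slc31a1 in replicate 4 at 8.43. In replicate 2, Slc39a11 was high at 8.44, while Slc35b3 was low at 8.41 and Slc35e4 was high at 7.32.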

How the results depend on the processing

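The number of genes called was 2114 in the first and 2158 in the second bioB set alone against 4206 over all arrays, and that of solute carrier genes called lower was 8 and 9 against 20; both sets hold fewer arrays. The solute carrier median log2 fold change of 0.017 was -0.014 in the second set and -0.008 with the bioB block and Meis1 deleted replicate 1 left out, and -0.010 to 0.032 over single arrays left out, with -0.010 for that replicate; its sign is not stable. Single arrays left out gave 3426 to 4673 genes, 25 to 30 solute carrier genes called higher and 16 to 23 lower. The counts of genes and of members called stayed within 1.5 times of the reported ones in the other settings. The samples share only a number: residuals of same-numbered arrays correlated at 0.0252, 0.224, -0.131 and 0.289, and with the replicate block 3906 genes, 26 members higher and 20 lower were called, with a median of 0.017.

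Reversals met 2 kinds of gene. Members near 0 crossed it: Slc35a4 gave -0.00 with 75th percentile scaling and with quantile normalization, -0.16 with array weights, -0.01 in the second bioB set, -0.13 with the bioB block and Meis1 deleted replicate 1 left out, and -0.16 to 0.11 over single arrays left out. Slc44a2 gave -0.00 with array weights, -0.02 in the second set, -0.02 with that block and replicate left out, -0.11 as the mean of probe sets and -0.02 (without Meis1 deleted replicate 1) to 0.06 over single arrays left out. Slc25a29 gave -0.00 in the second set. Other probe sets alone gave -0.42 for Slc44a2, -0.27 for Mfsd12, 0.23 for Mtf1, -0.08 for Slc19a2, -0.02 for Slc25a29, -0.22 for Slc35a3, 0.03 for Slc39a14, -0.04 for Slc39a8 and -0.06 for Slc45a4. The cause was not tested. Low signal limits probe sets near the floor.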
